A study of Homo sapiens with 2 samples.

Results

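The 10 genes described here are targets of the hypoxia-inducible factors (HIF) that lie outside core glycolysis, namely VEGFA, CA9, ADM, BNIP3, NDRG1, EGLN3, PFKFB4, ANKRD37, KDM3A and P4HA1. They were chosen by name, with earlier results of these data known, and all 10 had a row among the 19989 genes of the deposited table. The RNA-seq libraries were made from polyadenylated RNA of hNCI-H716 cells, a human cecal colorectal adenocarcinoma line that serves as a model of the GLP-1-secreting L-cell. The cells were moved from suspension culture onto Matrigel, and then kept for 48 h in serum-containing DMEM with either low (5.5 mM) or high (25 mM) glucose. There was 1 library per glucose concentration, no oxygen treatment is named for either, and any other difference between the cultures or libraries cannot be told apart from glucose. No difference below has a replicate check, no p-value was computed, and all intervals are at 95% and cover counting error only.

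HIF is a heterodimer of an oxygen-regulated alpha subunit (HIF1A or EPAS1) and the constitutive partner ARNT. When oxygen is present, prolyl hydroxylases of the EGLN family modify the alpha subunit, which VHL then binds and directs to proteasomal degradation. When oxygen is scarce, the stabilized dimer binds short elements with the core ACGTG or GCGTG and induces genes for angiogenesis, pH control, mitophagy, glycolytic flux and extracellular matrix, and several oxygen-using dioxygenases. Some of these genes also respond to other signals, and VEGFA is known to be induced by ATF4, the transcription factor of the amino acid and unfolded protein responses.

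The libraries held 21757759 (low glucose) and 19456812 (high glucose) estimated counts, as recovered from the spacing of the deposited CPM (counts scaled to a common library total). The floor used for a gene with no counts was 3 counts of the total, which is worth 0.138 CPM in low and 0.154 CPM in high glucose. Of the enteroendocrine markers, GCG, CHGA, CHGB, SCG2 and PCSK1 were all at 204 CPM or more in both libraries, while NEUROD1 had no row. The epithelial markers KRT8 and KRT18 were at 182 to 291 CPM, but EPCAM was at 3.37 and 3.50 CPM and CDH1 at 0.0582 and 0.166 CPM. The line also held COL3A1 and LUM, which mark fibroblasts in tissue, at 177 to 815 CPM, with COL1A1 at 0.115 CPM or less and no row for DCN. Endothelial markers summed to 1.05 and 0.806 CPM, and of the immune markers CD68 and LYZ had values while PTPRC and CD3E had no row.

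Across the target genes, the 2 libraries differed in a graded way. VEGFA, ADM and ANKRD37 were 1.64-fold to 2.10-fold lower in high than in low glucose, KDM3A and NDRG1 were lower by smaller margins, P4HA1 was level, EGLN3 was slightly higher, and for PFKFB4 no difference was detectable. BNIP3 and CA9 were under 1 CPM in both libraries and too low to compare. Of the 8 genes averaging 1 CPM or more, 6 had a lower and 2 a higher value in high glucose, and their median log2 ratio of high over low glucose was -0.32. The median over all 13052 genes at that level was -0.01, with 51.4% of them lower.

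**Figure D1:**
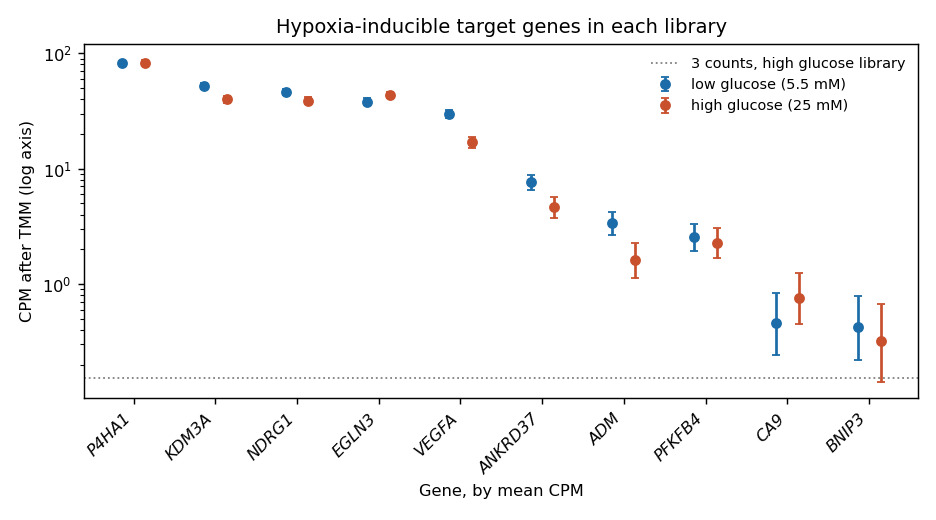
CPM of the 10 hypoxia-inducible target genes (log axis) in the low glucose library (blue) and the high glucose library (orange), ordered by mean CPM. Bars are 95% Wilson intervals, and the dotted line is the 0.154 CPM that 3 counts are worth in the high glucose library. The paired intervals are apart for VEGFA, ANKRD37, ADM, KDM3A and NDRG1 and overlap for the other 5 genes.

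The secreted ligands were both lower in high glucose, with fold intervals that overlapped that of ANKRD37. VEGFA (ENSG00000112715.21, chromosome 6, 43770184 to 43786487 of GRCh38, plus strand), the principal angiogenic growth factor of the HIF response, was at 29.7 CPM in low glucose (27.4 to 32.0; 644 counts), against 16.9 CPM in high glucose (15.1 to 18.8; 328 counts). The Wilson intervals of the libraries did not overlap. VEGFA was thus 1.76-fold lower in high glucose (interval 1.54 to 2.02), a log2 ratio of -0.81, and only 8 of the 9345 genes averaging 10 CPM or more had a lower ratio. ADM (ENSG00000148926.9, chromosome 11, 10304680 to 10307397, plus strand) encodes the vasodilator peptide adrenomedullin. It was at 3.37 CPM in low glucose (2.67 to 4.22; 73.0 counts), against 1.60 CPM in high glucose (1.12 to 2.26; 31.0 counts). This was a 2.10-fold lower value in high glucose with a wide interval (1.37 to 3.33), a log2 ratio of -1.07. In bulk RNA, fewer cells that transcribe a gene and less transcript in each cell cannot be told apart.

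ANKRD37 (ENSG00000186352.8, chromosome 4, 185396021 to 185400628, plus strand), a small ankyrin repeat protein gene, was at 7.61 CPM in low glucose (6.53 to 8.85), against 4.64 CPM in high glucose (3.76 to 5.68). The intervals were apart, and the value was 1.64-fold lower in high glucose (1.26 to 2.15), a log2 ratio of -0.72. Its exons share 909 bases with those of UFSP2 on the opposite strand, and the library kit does not mark strand, so reads from that stretch were divided between the genes by estimate. UFSP2 itself was at 21.4 CPM in low glucose, against 22.7 CPM in high glucose, a log2 ratio of 0.08 (interval -0.11 to 0.27).

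Of the members, 3 belong to the 2-oxoglutarate-dependent dioxygenases, enzymes that consume oxygen, and these did not move together. KDM3A (ENSG00000115548.16, chromosome 2, 86440647 to 86492716, plus strand) demethylates lysine 9 of histone H3. It was at 52.2 CPM in low glucose (49.2 to 55.3), against 39.9 CPM in high glucose (37.2 to 42.8), or 1.31-fold lower in high glucose (1.19 to 1.44). P4HA1 (ENSG00000122884.12, chromosome 10, 73007217 to 73096974, minus strand), the catalytic subunit of collagen prolyl 4-hydroxylase, was at 82.4 CPM (78.6 to 86.3) and 83.1 CPM (79.1 to 87.2). Its log2 ratio was 0.01, and the interval of -0.09 to 0.11 leaves out a change of the size seen for KDM3A. EGLN3 (ENSG00000129521.13, chromosome 14, 33924231 to 34462774, minus strand) encodes a HIF prolyl hydroxylase that is itself a HIF target. It was at 38.2 CPM in low glucose (35.6 to 40.8), against 43.6 CPM in high glucose (40.7 to 46.6), a log2 ratio of 0.19 (0.05 to 0.33) in the opposite direction to KDM3A, although the Wilson intervals of the libraries just touched. The ratio of EGLN3 also lay inside the 5th to 95th percentile of the genes averaging 10 CPM or more (-0.26 to 0.23).

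NDRG1 (ENSG00000104419.14, chromosome 8, 133237171 to 133302022, minus strand), a stress-responsive protein gene linked to differentiation, was at 46.4 CPM in low glucose (43.6 to 49.4), against 38.8 CPM in high glucose (36.1 to 41.6). The intervals were apart, but the log2 ratio of -0.26 (-0.40 to -0.12) sat at the 5th percentile of the genes averaging 10 CPM or more, which was also -0.26. PFKFB4 (ENSG00000114268.11, chromosome 3, 48517684 to 48562015, minus strand) makes and breaks down fructose 2,6-bisphosphate, the allosteric activator of phosphofructokinase. It was at 2.54 CPM in low glucose (1.95 to 3.30; 55.0 counts), against 2.27 CPM in high glucose (1.68 to 3.03; 44.0 counts). The interval of its log2 ratio, -0.77 to 0.43, covered 0 and also the ratio of ANKRD37, so no difference was detectable for PFKFB4 at this depth.

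BNIP3 and CA9 were near the limit of detection. BNIP3 (ENSG00000176171.11, chromosome 10, 131966455 to 131982013, minus strand), a mitochondrial outer membrane protein that promotes mitophagy, was at 0.426 CPM (0.218 to 0.787) in low glucose and 0.320 CPM (0.141 to 0.672) in high glucose, from 9 and 6 estimated counts. Its log2 ratio of -0.41 had an interval of -2.20 to 1.23. The annotation names 39 pseudogenes after BNIP3, none of which had a row under that name (73.4% of the symbols in the table are in GENCODE v29, so a row under another name is possible), and reads that match several copies are divided by estimate. CA9 (ENSG00000107159.12, chromosome 9, 35673856 to 35681159, plus strand), the cell-surface carbonic anhydrase IX, was at 0.463 CPM (0.244 to 0.835) in low glucose and 0.763 CPM (0.453 to 1.25) in high glucose, from 9.80 and 14.6 estimated counts. Its log2 ratio of 0.72 had an interval of -0.51 to 2.06. The exons of CA9 share 643 bases with ARHGEF39 on the opposite strand, which was far higher at 26.9 CPM and 30.7 CPM, and with no strand information reads of the shared stretch cannot be assigned with certainty. VEGFA, P4HA1 and PFKFB4 share shorter exon stretches, of 188, 47 and 289 bases, with AL136131.3, AL731563.2 and UCN2. None of these had a row under its GENCODE v29 name. For AL136131.3 and AL731563.2 this does not show that they were undetected, since the table uses older clone names for many genes.

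**Figure D2:**
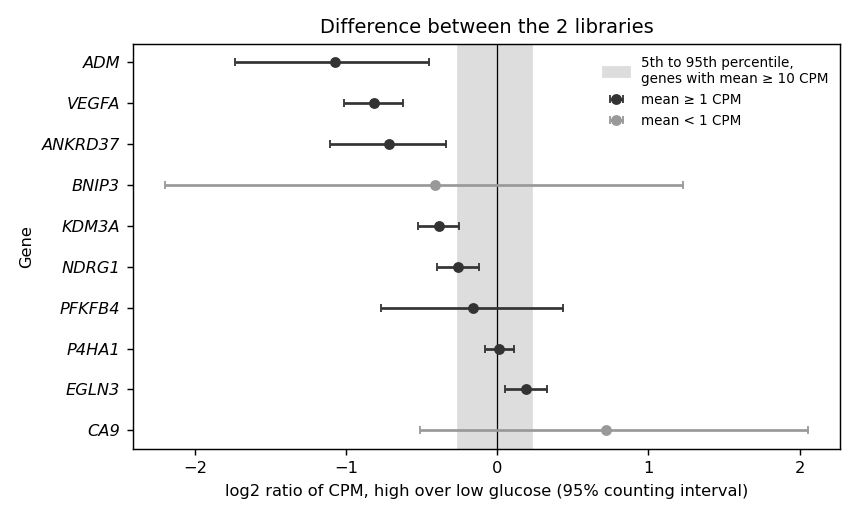
Log2 ratio of CPM, high over low glucose, for each of the 10 target genes, with exact binomial 95% intervals from the estimated counts. The grey band runs from the 5th to the 95th percentile of the genes averaging 10 CPM or more (-0.26 to 0.23), and grey points are the genes with a mean under 1 CPM. The intervals of ADM, VEGFA and ANKRD37 lie wholly to the left of the band, and those of CA9 and BNIP3 span it. ADM and ANKRD37 average under 10 CPM, where the same percentiles are wider (-0.72 to 0.51) and overlap the intervals of both.

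These counts were read against the same counts over all genes. A log2 ratio of -0.5 or lower (at least 1.41-fold lower in high glucose) was found for 3 of the 8 target genes averaging 1 CPM or more, against 3.72% of all genes at that level. A ratio of 0.5 or higher was found for 0 of 8, against 1.65%. The counting interval lay below 0 for 5 of the 8 (VEGFA, ADM, ANKRD37, KDM3A and NDRG1), against 16.0% of all genes, and above 0 for 1 (EGLN3), against 15.8%. The spread of the log2 ratio depends on level, so the share past -0.5 was also taken within classes of mean CPM. Among genes averaging 10 CPM or more it was 0.589%, and 1 of 5 target genes (VEGFA) was past it. Among genes from 1 to under 10 CPM it was 11.6%, and 2 of 3 target genes (ADM and ANKRD37) were past it. In this lower class the SD of the log2 ratio over all genes was 0.51, against 0.16 in the higher class. The 5th percentile of the lower class was -0.723, which the ratio of ANKRD37 (-0.716) did not pass and that of ADM (-1.07) did.

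**Figure D3:**
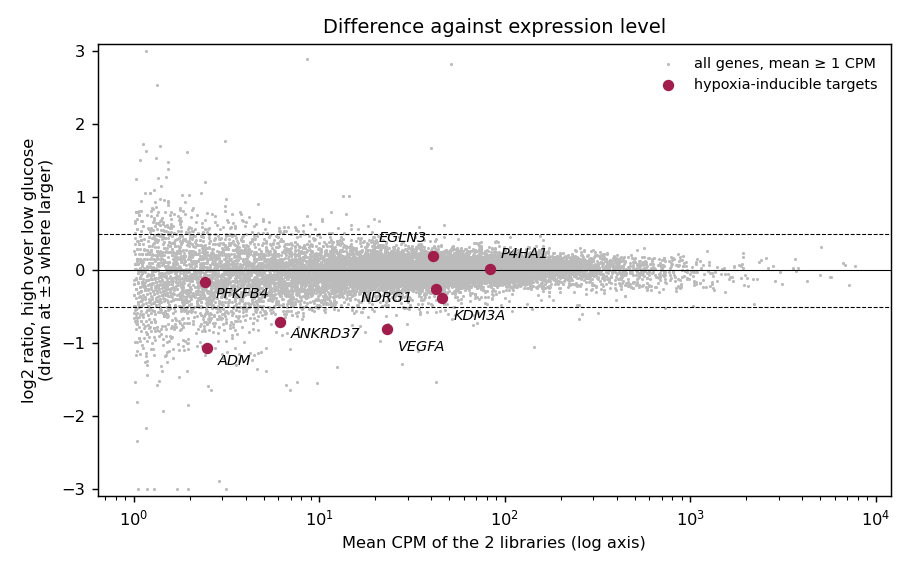
Log2 ratio of high over low glucose against mean CPM (log axis) for the 13052 genes averaging 1 CPM or more (grey) and the 8 target genes at that level (red). Dashed lines mark log2 ratios of -0.5 and 0.5. The grey cloud narrows as the mean CPM increases, and VEGFA lies well below it while EGLN3, NDRG1 and P4HA1 lie within it.

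The letters of the HIF core were looked up in the RefSeq promoter windows (GRCh38.p14, 250 bases before to 50 after the start site), which were matched for 8 of the 10 genes. VEGFA and NDRG1 were not matched. Either ACGTG or GCGTG, on either strand, occurred in 7 of the 8 windows, all except that of EGLN3. Among all 35116 windows of the same length the share was 48.4%, and among the 9165 windows of genes averaging 1 CPM or more it was 64.0%. ACGTG occurred in 4 of the 8 (BNIP3, ANKRD37, P4HA1 and CA9), against 21.4% of all windows and 27.1% of those of genes averaging 1 CPM or more. GCGTG also occurred in 4 of the 8, or 50%, against 36.5% and 51.4%. The ACGTG core is contained in the palindromic E-box CACGTG, which many other basic helix-loop-helix factors bind, and this E-box was found in the windows of ANKRD37 and BNIP3 and in 7.26% of all windows and 10.3% of those of genes averaging 1 CPM or more. The window of BNIP3 held the most matches, 6 (an E-box counts on both strands), although BNIP3 had the lowest level of the genes. A match describes the letters and is not evidence that a factor was bound.

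Stretches of at most 30 bases around these letters are shown for 3 genes that were lower in high glucose (ADM, ANKRD37 and KDM3A), for P4HA1, which was level, and for CA9, which was too low to compare. Each is written 5′ to 3′ on the strand of its gene, and capitals mark the core on either strand, so that CACGT is ACGTG read on the other strand. Positions are counted from the RefSeq start site, and GENCODE v29 places an exon of at least 1 transcript of the same gene over each of these stretches, and for CA9 also one of ARHGEF39. The positions are chr11:10304960-10304988 for ADM (core at -101), chr4:185396676-185396705 for ANKRD37 (the E-box from -162 and a further ACGTG at -143), chr2:86441333-86441361 for KDM3A (-26), chr10:73096936-73096964 for P4HA1 (minus strand, -86) and chr9:35673898-35673926 for CA9 (-18).
ADM: gagcaggagcgcGCGTGgctgaggaaaga
ANKRD37: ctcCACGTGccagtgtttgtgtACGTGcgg
KDM3A: ccgggaggctgtGCGTGtcttgtgagagc
P4HA1: tgtgatcgagctCACGTagcgagggctgc
CA9: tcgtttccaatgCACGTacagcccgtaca

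Genes with a lower value in high glucose and P4HA1 both held a core in these windows. ACGTG outside an E-box was found for ANKRD37, P4HA1 and CA9, and GCGTG alone for ADM, KDM3A and PFKFB4.

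To compare levels between genes, CPM was divided by the length of the longest protein-coding transcript. On this scale of CPM per kb, P4HA1 was the highest of the targets, at 28.96 in low and 29.22 in high glucose. EGLN3 (13.4 and 15.3), NDRG1 (12.4 and 10.3) and KDM3A (10.6 and 8.09) followed. VEGFA was at 8.39 CPM per kb in low and 4.77 in high glucose, and ANKRD37 at 6.67 and 4.06. ADM (1.79 and 0.849), PFKFB4 (0.709 and 0.633), CA9 (0.286 and 0.472) and BNIP3 (0.139 and 0.104) formed the low end. The mean of P4HA1 was 239 times that of BNIP3. Neighbours in this order had overlapping intervals in low glucose for EGLN3 with NDRG1 and for CA9 with BNIP3. In high glucose they overlapped for VEGFA with ANKRD37, ADM with PFKFB4 and PFKFB4 with CA9. The order of the upper genes depends on the length used, since the median protein-coding transcript length put NDRG1 first at a mean of 73.2 CPM per kb, and the union of exons put ANKRD37 (2.37) above VEGFA (1.61).

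The families of these genes placed the levels in context, again in CPM per kb. The other HIF prolyl hydroxylases, EGLN1 at 12.6 and 12.9 and EGLN2 at 16.5 and 15.9 in low and high glucose, were close to EGLN3 on this length only. With the median transcript length the means were 12.7 for EGLN1, 70.1 for EGLN2 and 22.0 for EGLN3, and with the union of exons they were 12.5, 6.96 and 5.55. P4HA2 was far below P4HA1, at 0.739 and 0.827, and P4HA3 had 3 and 2 estimated counts, at or under the floor. In contrast, the mitophagy receptor BNIP3L was at 14.6 and 14.7, while its paralog BNIP3 was at 0.139 and 0.104. PFKFB3 (11.4 and 12.7) and PFKFB2 (2.49 and 1.89) were both above PFKFB4, PFKFB1 had 2 estimated counts in each library, under the floor, and CA12 (0.870 and 0.938) was above CA9. NDRG2 (14.3 and 13.7) and NDRG3 (13.1 and 13.7) lay beside NDRG1 at 12.4 and 10.3 on this length only, and NDRG4 was at 0.333 and 0.216. With the median transcript length the means were 73.2 for NDRG1, 60.1 for NDRG2 and 13.7 for NDRG3. With the union of exons they were 4.34, 5.34 and 12.3. VEGFC had no row. VEGFB was at 36.6 and 31.7, above VEGFA in both libraries. PGF was at 4.74 and 5.81, below VEGFA in low glucose. In high glucose the intervals of PGF and VEGFA overlapped, on this length only. There, the value of PGF was below that of VEGFA with the median transcript length and above it with the union of exons. Of the 13 paralogs averaging 1 CPM or more, 6 had a lower and 7 a higher value in high glucose, and their median log2 ratio was 0.02, where 51.4% of all genes were lower. At -0.5 or lower was 1 of the 13, against 3.72% of all genes and 11.6% of those from 1 to under 10 CPM, the class of this gene. It was ADM2, which encodes the adrenomedullin-related peptide intermedin and is also on the ATF4 list. It was at 9.49 CPM in low glucose, against 4.48 CPM in high glucose, a log2 ratio of -1.08 (-1.47 to -0.72) beside that of ADM, -1.07. The histone demethylase KDM3B was at 83.1 CPM and 83.0 CPM, with an interval of its log2 ratio of -0.10 to 0.10, whereas that of KDM3A was -0.52 to -0.26.

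**Figure D4:**
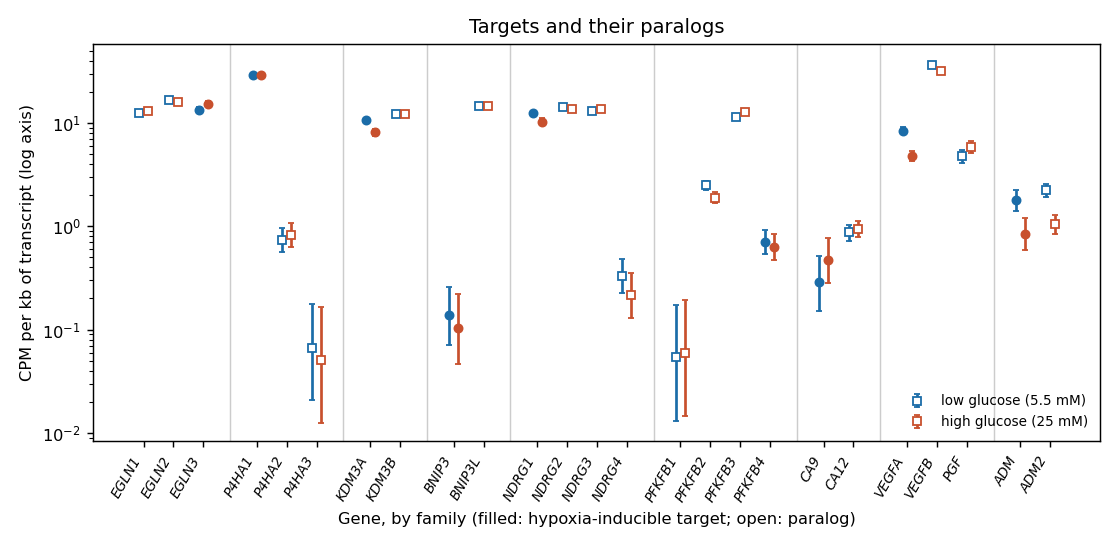
CPM per kb of the longest protein-coding transcript (log axis) for the target genes (filled) and their paralogs (open), by family, in low (blue) and high (orange) glucose. Bars are 95% Wilson intervals. BNIP3 lies about 2 orders of magnitude below BNIP3L, and EGLN3 lies between EGLN1 and EGLN2 on this length, but below both with the union of exons.

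The receptors through which the ligands act were measured in the same cells. Of the VEGF receptors, KDR and FLT4 had no row and FLT1 had 2 and 0 estimated counts, under the floor of 3 counts. The co-receptor NRP1 was high, at 515 CPM in low glucose, against 531 CPM in high glucose, a log2 ratio of 0.04, while NRP2 was at 0.196 and 0.423 CPM. CALCRL, the receptor through which adrenomedullin acts, had no row, and neither did RAMP3, one of the accessory proteins of CALCRL. Of the other accessory proteins of CALCRL, RAMP1 was at 134 and 118 CPM and RAMP2 at 1.26 and 1.71 CPM. The decoy receptor ACKR3 had 2 and 0 estimated counts. The signalling receptors of both ligands thus had no row or were under the floor, while the VEGF co-receptor NRP1 was abundant.

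Components that control HIF were described in the same way. Of 16 such genes, 13 averaged 1 CPM or more, of which 8 had a lower and 5 a higher value in high glucose, with a median log2 ratio of -0.05, where 51.4% of all genes were lower. None was at -0.5 or lower (against 3.72% of all genes) or at 0.5 or higher (against 1.65%). HIF1A was at 124 CPM in low glucose, against 131 CPM in high glucose, a log2 ratio of 0.08. EPAS1, the alpha subunit of HIF-2, was at 0.334 CPM and 0.371 CPM, from 7 estimated counts in each library. HIF3A had 0 and 3 estimated counts and ARNT2 had 2 in each library, at or under the floor. ARNT was at 59.3 and 55.4 CPM, and VHL, the substrate receptor of the ubiquitin ligase that degrades HIF, at 50.05 and 48.25 CPM. The counting interval lay below 0 for 3 of the 13, CITED2 (log2 ratio -0.33), ELOB (-0.23) and CREBBP (-0.07), against 16.0% of all genes, and above 0 for 2, CUL2 (0.13) and HIF1A, against 15.8%. It covered 0 for ARNT, VHL, EGLN1, EGLN2, HIF1AN, ELOC, RBX1 and EP300, whose log2 ratios ran from -0.10 to 0.04. CITED2, which competes with HIF for its coactivators and is itself a HIF target, thus had the lowest ratio of this group, at 77.2 CPM in low glucose, against 61.3 CPM in high glucose.

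A wider set of 29 HIF targets outside glycolysis did not show a shared direction. Of these, EPO and VLDLR had no row and 23 averaged 1 CPM or more, with 13 lower, 10 higher and a median log2 ratio of -0.01. A log2 ratio of -0.5 or lower was found for 3 of the 23, against 3.72% of all genes. All 3 were among the 16 averaging 10 CPM or more, where the share of all genes was 0.589%. The 3 were STC2, from 46.5 to 21.6 CPM (-1.11), DDIT4, from 193 to 93.0 CPM (-1.06), and BHLHE40, from 167 to 115 CPM (-0.54). STC2 and DDIT4 are also on the ATF4 list described below, and whether their lower values share a source with it was not tested. The highest ratios among genes averaging 10 CPM or more were those of TFRC and MET, at 0.18 each. ANGPTL4, at 5.03 and 7.25 CPM, was the only gene of the set at 0.5 or higher (0.53, interval 0.16 to 0.90), against 1.65% of all genes. The share at 0.5 or higher was not taken within its class, 1 to under 10 CPM. BHLHE40, ANGPTL4, ADM2 and SLC2A3 were named after their values were seen, because they passed these thresholds.

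The 20 HIF targets of glucose uptake and glycolysis had a median log2 ratio of -0.05, with 11 lower and 9 higher, where 51.4% of all genes were lower. The extremes among genes averaging 10 CPM or more were PFKP (-0.30) and PDK1 (-0.25), the kinase that restrains pyruvate entry into mitochondria, and LDHA (0.26) and PGAM1 (0.16). At -0.5 or lower was 1 of the 20, against 3.72% of all genes, and at 0.5 or higher 0 of the 20, against 1.65%. The gene was SLC2A3, a high-affinity glucose transporter, from 7.51 to 4.17 CPM (-0.85, interval -1.25 to -0.46). In its class, genes from 1 to under 10 CPM, the share at -0.5 or lower was 11.6%. A list of 15 ATF4 targets, whose direction in these libraries was known when it was chosen, had all 15 genes lower in high glucose (against 51.4% of all genes), with a median log2 ratio of -0.75 and 11 at -0.5 or lower (against 3.72% of all genes). DDIT3, the gene of the pro-apoptotic factor CHOP, was at -1.53 and STC2 at -1.11, while the amino acid synthesis genes PHGDH and PSAT1 were at -0.28 and -0.10. Whether the lower values of VEGFA, ADM and ANKRD37 share a source with those of the ATF4 list was not tested.

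**Figure D5:**
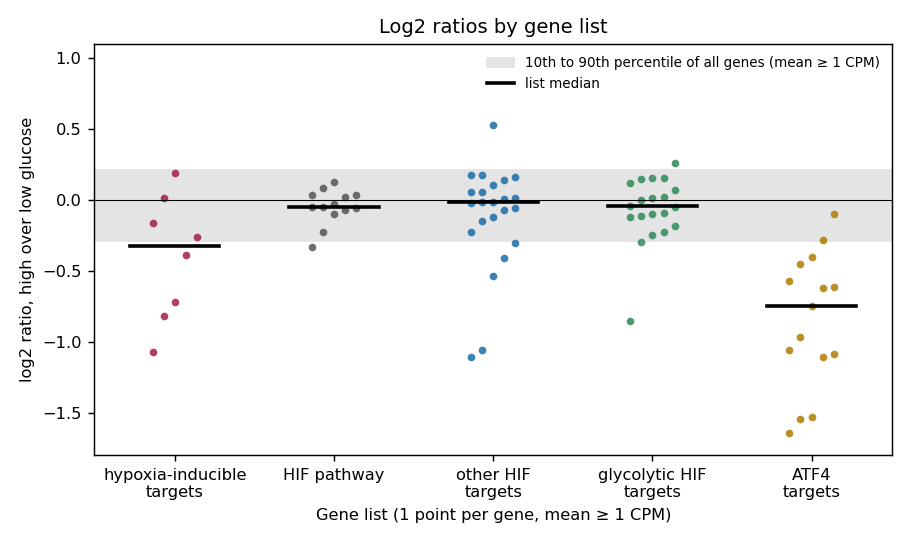
Log2 ratio of high over low glucose for each gene averaging 1 CPM or more, by gene list, with the list median as a black bar and the 10th to 90th percentile of all genes in grey. The 8 hypoxia-inducible targets have a median of -0.32, the HIF pathway, other HIF targets and glycolytic HIF targets have medians from -0.05 to -0.01, and the ATF4 targets have a median of -0.75.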

How the data were processed

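RNA-seq was available from 1 library of hNCI-H716 cells in low and 1 in high glucose. The authors aligned paired-end reads to GRCh38 with STAR 2.6.0, estimated counts per gene with RSEM 1.3.1, removed genes with very low totals and applied the trimmed mean of M-values (TMM) in edgeR (version not given in the sources used here). Trim Galore 0.5.0 is also listed in the submitters' processing notes. The deposited table holds CPM per library, which were used, and log2 CPM per library, means over both libraries, and the authors' ratio and log2 difference of high over low glucose, none of which were used.

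The CPM worth of 1 count was read from the spacing of low values (0.0460 in low and 0.0514 in high glucose), giving the library totals. Of values under 10 CPM, 73.9% (low glucose) and 74.0% (high glucose) lay within 0.05 of a whole number of counts, the rest being fractional RSEM estimates. CPM were divided by TMM factors computed from these counts (0.998 and 1.002), with the authors' prior kept. Levels have Wilson intervals, and log2 ratios have exact binomial intervals on counts rounded to whole numbers. No count model or p-value was possible with 1 library per concentration. Analyses used Python 3.11.15, numpy 2.4.6, pandas 2.3.3 and scipy 1.17.1. The procedure was tested on simulated counts that held counting error only, so the test cannot show how the intervals perform with variation between cultures. In the real libraries, the median chi-square of the 2 counts of a gene against equal expression was 2.31 among genes averaging 10 CPM or more. Counting error alone would give 0.455, so differences between the libraries were commonly larger than counting error. Coordinates and lengths came from GENCODE v29 and promoters from RefSeq (GRCh38.p14).

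The members, gene lists and thresholds were chosen with earlier results of these data known. Named genes were the 10 members, the HIF pathway and receptor genes with a row, the 2 highest and 2 lowest log2 ratios of each other list among genes averaging 10 CPM or more, and genes overlapping a member. Outside this rule, the remaining paralogs were named to give the levels within each family, the listed receptors, HIF targets and cell markers were named also where they had no row, and a few genes were named after their values were seen, as stated there. Alternatives were library totals, median-of-ratios factors, prior removal, a pseudocount of 1 CPM, other thresholds, filters and transcript lengths.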

Additional observations from a re-analysis of the deposited data

How the results depend on the processing

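Under library totals, median-of-ratios factors, removal of the prior and a pseudocount of 1 CPM, all 40 recomputed log2 ratios of the 10 target genes stayed inside their counting intervals. The TMM factors were close to 1, so exchanging the scalings could not move a value far. The pseudocount, which by construction shrinks low genes, moved CA9 from 0.72 to 0.27 and ADM from -1.07 to -0.75. The 3 target genes at -0.5 or lower became 5 at a threshold of 0.25 (against 12.2% of all genes) and 1 at a threshold of 1 (against 0.621%). The share of all genes at -0.5 or lower was 0.589% among genes averaging 10 CPM or more, 11.6% from 1 to under 10 CPM (a class added after the data were seen) and 14.95% with no filter, and the share at 0.5 or higher was 0.235% and 10.99% among genes averaging 10 CPM or more and with no filter. The ratio of the highest to the lowest target in CPM per kb, 239, was 382 with the union of exons and 561 with the median transcript length. The median of the receptor list was -0.066 (from 0.04) over its 2 genes averaging 10 CPM or more. Depth limits BNIP3, CA9 and PFKFB4, whose intervals cover 0. No paired analysis was possible because low and high glucose were each sequenced once, which also leaves no library that could be left out.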
